A study of Rattus norvegicus with 4 samples.

Results

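A set of 9 genes of the TAM system and its companion uptake genes were followed in the rat synovium out of the 17899 rat genes in the deposited table. They were picked by gene symbol, and each symbol stood on 1 row. TAM names the receptor tyrosine kinases Tyro3, Axl and Mertk. Bulk messenger RNA was measured in 4 libraries of the joint-lining tissue, and all came from rats labelled as having osteoarthritis. AdMSC 1 was tissue injected with human AdMSCs, SyMSC 1 was tissue injected with human SyMSCs, and PBS 1 and PBS 2 were tissue injected with PBS, a salt buffer. The series describes collection on the day after the human cells were given, gives no interval for PBS, and speaks in its title of before and after injection, where the treatment labels say PBS. MSC commonly stands for mesenchymal stem cell, and the labels write only the abbreviations. The sources used here state neither strain and age, nor how the disease was induced, nor whether animals were pooled or tolerated human cells. The titles, which also call the PBS libraries mix, join AdMSC 1 with PBS 1 by the word Ad and SyMSC 1 with PBS 2 by the word Sy. AdMSC 1 and SyMSC 1 together are called the MSC arm (n = 2) and the PBS libraries the PBS arm (n = 2). Separate animals are nowhere stated for the libraries. The p-values therefore measure only the spread between these 4 libraries, and that spread may be technical.

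Efferocytosis is the uptake of dying cells by phagocytes. A dying cell exposes the lipid phosphatidylserine on its surface, and secreted bridging proteins hold that lipid with one end and a receptor on the phagocyte with the other. Gas6 and protein S, the product of Pros1, are the bridging ligands of the TAM receptors and bind the lipid through a domain that needs vitamin K-dependent carboxylation. In many tissues Mertk is known as a macrophage receptor and Axl as a receptor of fibroblasts, endothelial cells and activated myeloid cells. In the synovium, TAM receptors on lining macrophages are known from mouse and human work for restraining inflammation.

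Values were TPM, a length-normalised share of each library's transcripts, so levels can be set side by side between genes. The file keeps no read depth, so no counting interval can be given, and how imprecise the low values are is unknown. Lining fibroblast RNA was present in every library, with Prg4, which encodes lubricin, at 4192 TPM in AdMSC 1 and 2448 TPM in SyMSC 1, against 3930 TPM in PBS 1 and 3765 TPM in PBS 2. Summed muscle and fat markers were lower in both MSC libraries and uneven within the PBS arm. Skeletal muscle markers summed to 230 TPM in AdMSC 1 and 250.4 TPM in SyMSC 1. Their sum was 1898 TPM in PBS 1 and 782 TPM in PBS 2, and 3 of 6 were called lower. That count was 5 under median-ratio or upper quartile scaling, with a pseudocount of 0.1 or with no filter on low values. It was 4 with a filter of 5 TPM in 2 libraries and 6 with eBayes without trend and robust options. It fell without AdMSC 1 or SyMSC 1 and rose without PBS 1 or PBS 2. Adipocyte markers summed to 222 TPM in AdMSC 1 and 261 TPM in SyMSC 1, against 522 TPM in PBS 1 and 1468 TPM in PBS 2, and 1 of 4 was called lower (0 without AdMSC 1 or SyMSC 1, 4 without PBS 1). Between the PBS libraries, summed erythroid markers stood at 21688 TPM in PBS 1 and 7664 TPM in PBS 2. Their part in the results was not tested.

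The bridging ligands fell and the receptors divided. Gas6, Pros1, Mfge8, Axl and Tyro3 were lower in the MSC arm, Mertk was higher, and Lrp1 and Stab1 did not pass. In bulk tissue, fewer cells of a type and less RNA per cell cannot be told apart. Of 9 genes, 8 passed the filter of at least 1 TPM in at least 2 libraries and were tested, and Stab2 did not. With limma over 13371 genes and Benjamini-Hochberg adjustment, 6 of the 8 were called at an adjusted p under 0.05, 1 higher and 5 lower. Over all genes tested 48.4% were called, 23.7% higher and 24.7% lower, so being called sets a gene little apart in these libraries. The median log2 change was -0.86 over the 8 genes and 0.00087 over all genes tested. In each of the 8 genes the arms did not overlap, as was the case for 78.8% of all genes tested (39.5% with the MSC arm above, 39.4% with it below). Each log2 change is a difference of mean log2(TPM + 1), and the added 1 makes it too small for low genes.

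**Figure D1:**
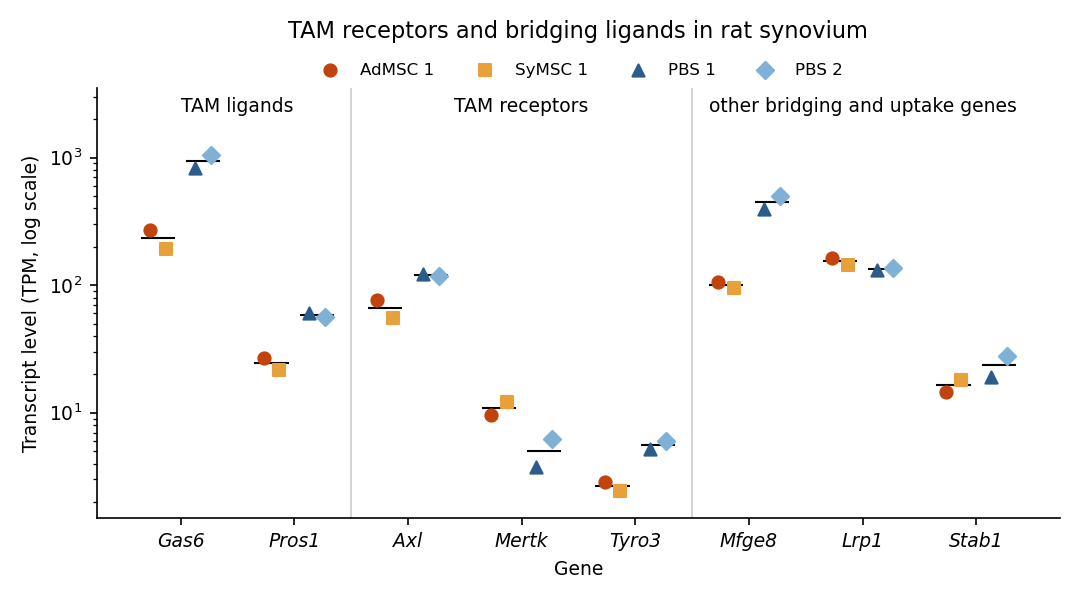
Transcript level in TPM on a log scale for 8 genes in each of the 4 libraries, with a short line at the mean of the MSC arm (left) and the PBS arm (right) of each gene. Gas6, Pros1, Axl, Tyro3, Mfge8 and Stab1 lie lower in both MSC libraries than in both PBS libraries, and Mertk and Lrp1 lie higher. Stab2, between 0 and 0.05 TPM, is not drawn.

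Gas6 (gene ID 58935) encodes the TAM ligand that binds all 3 receptors, and it was the most abundant of the 9 genes in every library. It stood at 271.5 TPM in AdMSC 1 and 193.4 TPM in SyMSC 1, against 828 TPM in PBS 1 and 1046 TPM in PBS 2. Both MSC libraries lay far under both PBS libraries. The mean was 232 ± 55.2 TPM in the MSC arm and 937 ± 154 TPM in the PBS arm (SD, n = 2 each), a level 4.03-fold lower (log2 change -2.02, SE 0.21, limma adjusted p = 0.000935).

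Pros1 (gene ID 81750) encodes protein S, which also acts in blood as a cofactor of the anticoagulant protein C. It stood at 27.1 TPM in AdMSC 1 and 21.7 TPM in SyMSC 1, against 60.8 TPM in PBS 1 and 56.5 TPM in PBS 2. The PBS libraries were close to each other and both MSC libraries lay well under them, with a mean of 24.4 ± 3.79 TPM in the MSC arm and 58.6 ± 3.04 TPM in the PBS arm (SD, n = 2 each), 2.40-fold lower (log2 change -1.24, SE 0.15, limma adjusted p = 0.00156). Gas6 made up between 89.9% and 94.9% of the summed TPM of Gas6 and Pros1 in the 4 libraries.

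Axl (gene ID 308444), the receptor that binds Gas6 most tightly, carried most of the TAM receptor RNA. It stood at 76.8 TPM in AdMSC 1 and 54.8 TPM in SyMSC 1, against 122 TPM in PBS 1 and 118 TPM in PBS 2. The arms did not overlap, and the PBS libraries were nearly equal. Its mean was 1.82-fold lower in the MSC arm (log2 change -0.87, SE 0.18, limma adjusted p = 0.00916). Tyro3 (gene ID 25232), a receptor better known from the nervous system, was low throughout. It stood at 2.89 TPM in AdMSC 1 and 2.43 TPM in SyMSC 1, against 5.20 TPM in PBS 1 and 6.0 TPM in PBS 2 (log2 change -0.85, SE 0.18, limma adjusted p = 0.0113). Its limma call ended without SyMSC 1 (adjusted p = 0.0579) or without PBS 2 (0.0538).

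Mertk (gene ID 65037) was the receptor that went the other way. It stood at 9.58 TPM in AdMSC 1 and 12.2 TPM in SyMSC 1, against 3.77 TPM in PBS 1 and 6.24 TPM in PBS 2. Both MSC libraries lay above both PBS libraries, with AdMSC 1 and PBS 2 closest across the arms. The mean was 2.18-fold higher in the MSC arm (log2 change 1.01, SE 0.25, limma adjusted p = 0.017). This call rested on single libraries, since the log2 change was 0.85 without SyMSC 1 (limma adjusted p = 0.0882) and 0.71 without PBS 1 (0.0512).

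**Figure D2:**
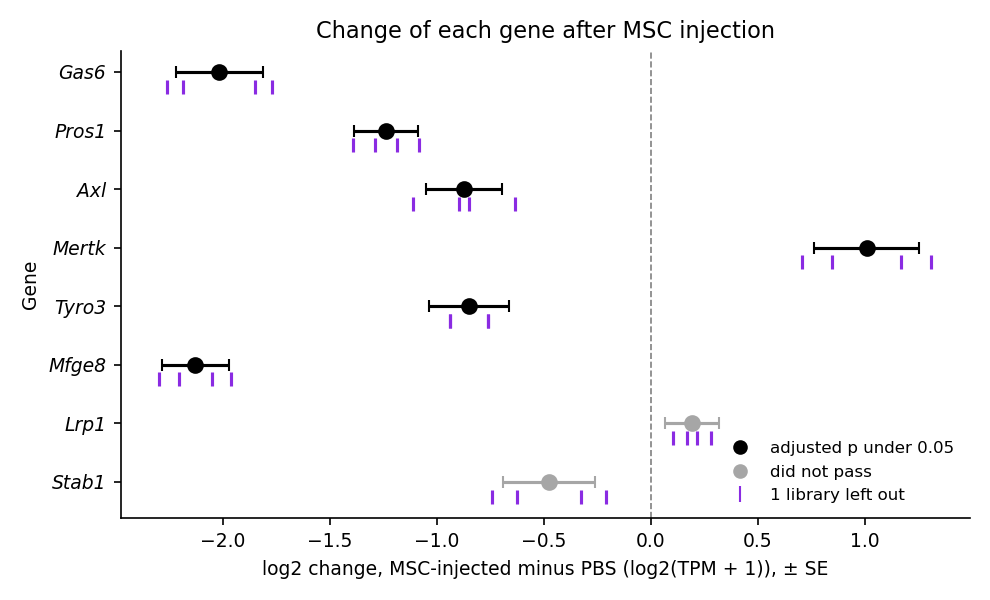
Log2 change of 8 genes on the log2(TPM + 1) scale, MSC arm minus PBS arm, with the standard error as a bar, black where the limma adjusted p was under 0.05 and grey where not. Purple ticks give the change with 1 library left out in turn. Gas6 and Mfge8 lie near -2, Mertk near 1, and no tick lies on the other side of 0 from its gene.

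The make-up of the receptor pool shifted with these changes. Mertk was 10.7% of the summed TPM of the TAM receptors in AdMSC 1 and 17.6% in SyMSC 1, against 2.88% in PBS 1 and 4.8% in PBS 2. Axl was 86.0% in AdMSC 1 and 78.9% in SyMSC 1, against 93.1% in PBS 1 and 90.6% in PBS 2, so it stayed the main receptor transcript in every library. The summed receptors stood at 89.2 TPM in AdMSC 1 and 69.5 TPM in SyMSC 1, against 131 TPM in PBS 1 and 129.96 TPM in PBS 2. The summed ligands stood at 299 TPM in AdMSC 1 and 215 TPM in SyMSC 1, against 889 TPM in PBS 1 and 1102 TPM in PBS 2.

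Ligand RNA thus outweighed receptor RNA everywhere, by less in the MSC arm. The ratio of summed ligand TPM to summed receptor TPM was 3.35 in AdMSC 1 and 3.10 in SyMSC 1, against 6.79 in PBS 1 and 8.48 in PBS 2. This ratio is taken within a library and does not depend on how libraries are scaled. It is a description with no test. Taken for single genes, Gas6 over Mertk was 28.3 in AdMSC 1 and 15.8 in SyMSC 1, against 219.7 in PBS 1 and 168 in PBS 2.

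**Figure D3:**
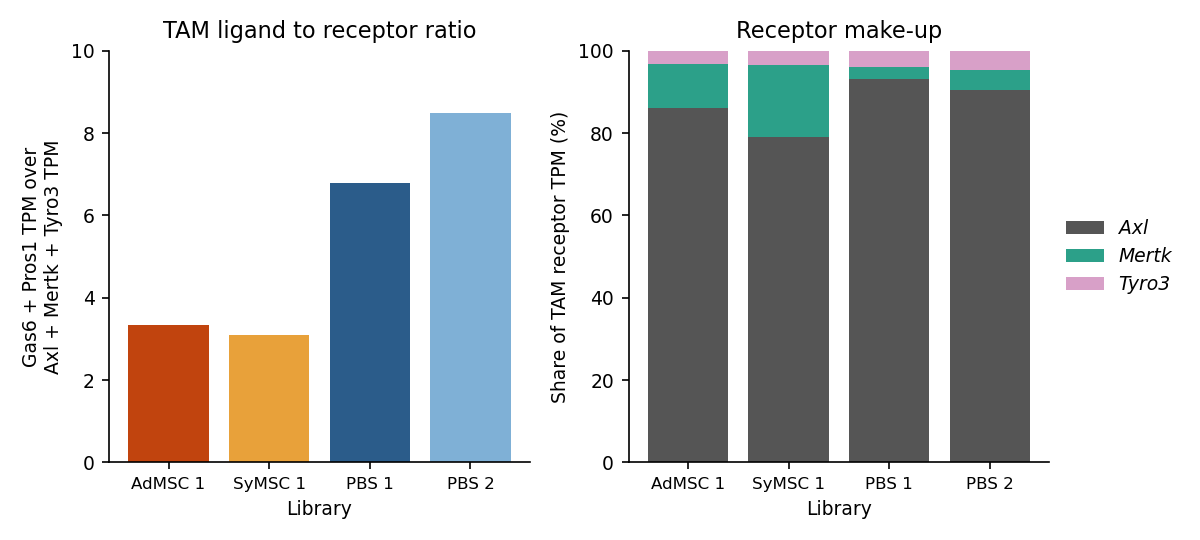
Left, the ratio of summed Gas6 and Pros1 TPM to summed Axl, Mertk and Tyro3 TPM in each library; right, the share of each receptor in the summed receptor TPM in percent. The ratio is 3.35 and 3.10 in the MSC libraries and 6.79 and 8.48 in the PBS libraries, and the Mertk share is larger in the MSC libraries.

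Mfge8 (gene ID 25277) encodes a bridging protein that ties phosphatidylserine to integrins of the alpha v family instead of TAM receptors. It stood at 106 TPM in AdMSC 1 and 95.3 TPM in SyMSC 1, against 395 TPM in PBS 1 and 498 TPM in PBS 2. The MSC libraries were close to each other and far under the PBS libraries (log2 change -2.13, SE 0.16, limma adjusted p = 0.000413). Among the 8 tested genes, the Gas6 and Mfge8 profiles and the Axl and Tyro3 profiles lay closest, each pair with a root mean square difference of 0.13 on the log2 scale over the 4 libraries after each gene was centred on its own mean.

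The promoters of the genes that fell most and of the receptors that moved apart are shown to let their sequence be compared. They are the 250 bases before the annotated start in the RefSeq annotation of GRCr8, read 5′ to 3′ on the gene's strand, a later build than the Rnor_6.0 named for the expression values. All 9 genes had a window. Capitals mark the GC box GGGCGG on either strand, the core of the site bound by Sp1-type factors.
Gas6, chr16:82747426-82747675, plus strand: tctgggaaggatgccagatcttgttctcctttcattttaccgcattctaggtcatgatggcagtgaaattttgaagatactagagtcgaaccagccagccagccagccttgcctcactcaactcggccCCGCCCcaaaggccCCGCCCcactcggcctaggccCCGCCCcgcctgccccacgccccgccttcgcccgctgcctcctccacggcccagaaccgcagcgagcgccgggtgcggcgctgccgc
Mfge8, chr1:142489432-142489681, minus strand: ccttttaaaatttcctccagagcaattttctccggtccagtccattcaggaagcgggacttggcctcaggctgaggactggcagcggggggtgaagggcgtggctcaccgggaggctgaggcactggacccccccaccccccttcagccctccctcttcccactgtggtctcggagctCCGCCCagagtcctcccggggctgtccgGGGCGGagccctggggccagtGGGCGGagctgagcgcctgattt
Axl, chr1:90424010-90424259, minus strand: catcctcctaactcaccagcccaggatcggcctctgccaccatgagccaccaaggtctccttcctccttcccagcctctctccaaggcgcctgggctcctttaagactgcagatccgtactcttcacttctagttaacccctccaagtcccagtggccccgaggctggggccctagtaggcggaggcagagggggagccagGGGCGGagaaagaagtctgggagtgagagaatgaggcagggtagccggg
Mertk, chr3:136392324-136392573, plus strand: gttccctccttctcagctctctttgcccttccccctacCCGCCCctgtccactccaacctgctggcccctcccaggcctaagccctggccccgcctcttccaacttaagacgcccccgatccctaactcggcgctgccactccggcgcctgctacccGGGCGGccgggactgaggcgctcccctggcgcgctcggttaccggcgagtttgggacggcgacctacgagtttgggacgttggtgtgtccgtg
Gas6 and Mfge8 each held 3 GC boxes, Mertk held 2 and Axl 1. Of the windows not shown, that of Tyro3 held 6 GC boxes, Pros1 3, Lrp1 1, and Stab1 and Stab2 0. Among the promoters of 10546 tested genes with a window of this length, 57.6% held at least 1 and 16.9% at least 3. None of the 4 windows held a CCAAT box (CCAAT, in 35.6% of those promoters), a TATA box (TATAAA, in 6.87%) or an AP-1 site (TGANTCA, in 4.46%), searched on both strands. Gas6 held 1 nuclear receptor half-site AGGTCA, found in 10.3% of those promoters. Of the windows not shown, that of Tyro3 held 1 AP-1 site and that of Stab2 held 1 such half-site. A match is a match of letters, not a shown binding site.

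Lrp1 (gene ID 299858), a large endocytic receptor that takes up calreticulin-marked cells and many protease complexes, was abundant and moved little. It stood at 163 TPM in AdMSC 1 and 144 TPM in SyMSC 1, against 132 TPM in PBS 1 and 136 TPM in PBS 2 (log2 change 0.19, SE 0.13, limma adjusted p = 0.255). Stab1 (gene ID 100363145), a scavenger receptor of macrophages and endothelium that also binds phosphatidylserine, stood at 14.6 TPM in AdMSC 1 and 18.2 TPM in SyMSC 1, against 19.1 TPM in PBS 1 and 27.97 TPM in PBS 2. SyMSC 1 and PBS 1 were close to each other, and the difference did not pass (log2 change -0.48, SE 0.21, limma adjusted p = 0.11). Without PBS 1 it passed, at a log2 change of -0.74 (limma adjusted p = 0.0309), and without PBS 2 the change was -0.21. Stab2 (gene ID 282580), the related receptor known from sinusoidal endothelium of liver and spleen, was listed at 0.01 TPM in AdMSC 1, 0.04 TPM in SyMSC 1, 0 in PBS 1 and 0.05 TPM in PBS 2. It was under the filter, and no comparison was made.

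The order of the levels differed between arms by a few steps. In both MSC libraries it ran Gas6, Lrp1, Mfge8, Axl, Pros1, Stab1, Mertk and Tyro3, and neighbours in that order did not overlap between the libraries. In the PBS libraries it ran Gas6, Mfge8, Lrp1, Axl, Pros1 and Stab1, with Tyro3 and Mertk last and overlapping. Lrp1 therefore stood above Mfge8 in both MSC libraries and below it in both PBS libraries, and Mertk stood above Tyro3 in both MSC libraries.

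The cell sources were compared next. Both MSC libraries lay on the same side of both PBS libraries in each of the 8 genes. This held for 78.8% of all genes tested, so it says little about the 8 genes or the sources. In a limma fit with 3 groups, whose 1 residual degree of freedom comes from the PBS libraries and assumes that the lone MSC libraries vary as those do, Gas6 changed by -1.77 (adjusted p = 0.00395) in AdMSC 1 against PBS and by -2.26 (0.00148) in SyMSC 1 against PBS. Mfge8 changed by -2.05 (0.00266) and -2.21 (0.00147), Pros1 by -1.09 (0.00665) and -1.39 (0.00244), and Axl by -0.64 (0.0213) and -1.11 (0.00361) in the same order. Mertk changed by 1.17 in SyMSC 1 (0.0339), while its 0.85 in AdMSC 1 did not pass (0.0856), and Tyro3 likewise changed by -0.94 in SyMSC 1 (0.0311), while its -0.76 in AdMSC 1 did not pass (0.0619). That made 4 of 8 genes called for AdMSC 1, each lower, where 34.4% of all genes tested were called, 17.9% higher and 16.5% lower. For SyMSC 1 it made 6 of 8, 1 higher and 5 lower, where 40.2% were called, 18.2% higher and 22.0% lower. These contrasts share the PBS libraries.

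Set directly against each other, the sources did not differ in a way the test could call. With limma, 0 of the 8 genes and 0 of 13371 genes, 0% of those tested, passed for SyMSC 1 against AdMSC 1, where 1 of the 8 and 861 of 13371 had an unadjusted p under 0.05. The 1 was Axl, with a log2 difference of -0.48 (SE 0.16, limma adjusted p = 0.725). Gas6 had a log2 difference of -0.49 (SE 0.22, limma adjusted p = 0.822) and Mertk of 0.32 (SE 0.35, limma adjusted p = 0.906). With 1 library a source these values do not show that the sources act alike.

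Within the pairs the titles form, 1 library stood against 1 and no test applies. A gene was counted past 2-fold on TPM + 1 if it also reached 5 TPM in the higher library. In AdMSC 1 against PBS 1, 4 of the 9 genes were past this size, Gas6 (-1.61 as a log2 ratio), Pros1 (-1.14) and Mfge8 (-1.89) lower and Mertk (1.15) higher, where 18.9% of genes tested were past it, 9.0% higher and 9.89% lower. In SyMSC 1 against PBS 2, 5 of the 9 were past it, Gas6 (-2.43), Mfge8 (-2.37), Pros1 (-1.34), Axl (-1.09) and Tyro3 (-1.03), each lower, where 22.6% were past it, 10.4% higher and 12.2% lower. Mertk stood at 0.87 there. Between PBS 2 and PBS 1, 0 of the 9 were past it (1.70% of genes tested, 0.725% higher and 0.972% lower), and Mertk, at a log2 ratio of 0.60, differed most. Between SyMSC 1 and AdMSC 1 also 0 of the 9 were past it (1.65% of genes tested, 1.10% higher and 0.546% lower).

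Markers of the cells that are known to express these genes moved as well. Their counts stand beside 23.7% called higher and 24.7% called lower over all genes tested. Of 12 macrophage and monocyte markers, 9 were called higher, 1 lower and 2 did not pass (0 lower without AdMSC 1, SyMSC 1 or PBS 2, and 2 lower without PBS 1), and their summed level was 32822 TPM in AdMSC 1 and 42072 TPM in SyMSC 1, against 12876 TPM in PBS 1 and 14558 TPM in PBS 2. This sum is mostly Lyz2, at 19301 TPM in AdMSC 1 and 27210 TPM in SyMSC 1, against 8163 TPM in PBS 1 and 9237 TPM in PBS 2. In the same list C1qb was called lower, and Adgre1 and C1qa did not pass. Of 7 tested markers of resident synovial macrophages, 3 were called higher, 3 lower and 1 did not pass. These summed to 757 TPM in AdMSC 1 and 724 TPM in SyMSC 1, against 396 TPM in PBS 1 and 524 TPM in PBS 2. The sum is mostly Folr2, at 507 TPM in AdMSC 1 and 469.9 TPM in SyMSC 1. In PBS 1 and PBS 2 Folr2 stood at 226 and 300.5 TPM. The list's median log2 change was -0.59. Siglec1 (log2 change 1.88), Mrc1 (1.22) and Folr2 (0.90) were called higher, and Timd4 (-1.15), Lyve1 (-0.83) and Vsig4 (-0.70) were called lower. Without PBS 2, 1 of the list was called lower. These values stand beside the change of Mertk. Of 10 fibroblast markers, 8 were called lower and 2 did not pass, with a sum of 17243 TPM in AdMSC 1 and 11728 TPM in SyMSC 1, against 39534 TPM in PBS 1 and 32134 TPM in PBS 2. Beside the lower genes, 7 of 8 endothelial markers were called lower and 1 was not called, with sums of 255 and 211 TPM in AdMSC 1 and SyMSC 1, against 644 and 708 TPM in PBS 1 and PBS 2. All 6 mural markers, of the cells that wrap vessels, were called lower, with sums of 426 and 292 TPM in AdMSC 1 and SyMSC 1, against 1447 and 1735 TPM in PBS 1 and PBS 2. None of the markers in these 5 lists was at 0 in any library. Of 8 neutrophil markers, 5 were called higher and 3 did not pass, with 3 called without AdMSC 1 and 1 without SyMSC 1, and they summed to 2294 TPM in AdMSC 1 and 4038 TPM in SyMSC 1, against 257 TPM in PBS 1 and 95.98 TPM in PBS 2. The part of these shifts in the changes of the 9 genes was not tested.

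The genes were also set against single markers within each library, in 13 ratios of TPM whose markers were picked after their values had been seen. For Mertk the outcome depended on the macrophage marker. Mertk over Csf1r, the growth factor receptor of macrophages, was 0.0236 in AdMSC 1 and 0.0264 in SyMSC 1, against 0.0241 in PBS 1 and 0.0318 in PBS 2, and the arms overlapped. Mertk over Cd68, a lysosomal protein of macrophages, was 0.00638 in AdMSC 1 and 0.0087 in SyMSC 1, against 0.00916 in PBS 1 and 0.0135 in PBS 2. Mertk over Tyrobp, a signalling adaptor of myeloid cells, was 0.00269 in AdMSC 1 and 0.00252 in SyMSC 1, against 0.00492 in PBS 1 and 0.00708 in PBS 2. Over these last markers Mertk was lower in both MSC libraries than in both PBS libraries, though its own level was higher. The log2 changes of Csf1r (1.30), Cd68 (1.73) and Tyrobp (2.34) were each larger than that of Mertk (1.01). Those of Ctss (0.51), Adgre1 (-0.054), C1qa (-0.42) and C1qb (-0.65) were smaller, so relative to these Mertk was higher in the MSC arm.

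For Gas6 the outcome also depended on the marker. Gas6 over the fibroblast receptor gene Pdgfra was 7.93 in AdMSC 1 and 7.31 in SyMSC 1, against 14.3 in PBS 1 and 19.8 in PBS 2, with no overlap. Gas6 over the collagen gene Col1a1, another fibroblast marker, was 0.0797 in AdMSC 1 and 0.0857 in SyMSC 1, against 0.066 in PBS 1 and 0.128 in PBS 2, with overlapping arms. Over the endothelial marker Pecam1, Gas6 stood at 6.02 in AdMSC 1 and 5.75 in SyMSC 1. It stood at 5.72 in PBS 1 and 6.04 in PBS 2, so the arms overlapped too. Pecam1 is among the 3 genes whose profiles lay closest to Gas6, so this overlap follows from the choice of marker. Of the 8 endothelial markers, 2 had a lower log2 change than Gas6.

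Axl over Pdgfra overlapped between the arms, at 2.24 in AdMSC 1 and 2.07 in SyMSC 1, against 2.10 in PBS 1 and 2.23 in PBS 2. Pros1 over Pdgfra did not, at 0.791 in AdMSC 1 and 0.821 in SyMSC 1, against 1.05 in PBS 1 and 1.07 in PBS 2. Mfge8 was lower over Pdgfra, at 3.10 in AdMSC 1 and 3.6 in SyMSC 1, against 6.82 in PBS 1 and 9.46 in PBS 2. Over Pecam1 and over the mural marker Acta2, Mfge8 overlapped between the arms. Lrp1, whose own level moved little, was higher over Pdgfra in both MSC libraries (4.76 and 5.44, against 2.28 and 2.58 in PBS 1 and PBS 2) and lower over Csf1r (0.401 and 0.312, against 0.841 and 0.694 in PBS 1 and PBS 2). Of the 10 fibroblast markers, 1 had a lower log2 change than Gas6 and 7 had a lower one than Axl. Axl changed by -0.87, Pdgfra by -0.85 and Col1a1 by -1.87, so for Axl too the outcome depends on the fibroblast marker. Of the 12 macrophage markers, 4 had a lower log2 change than Mertk.

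**Figure D4:**
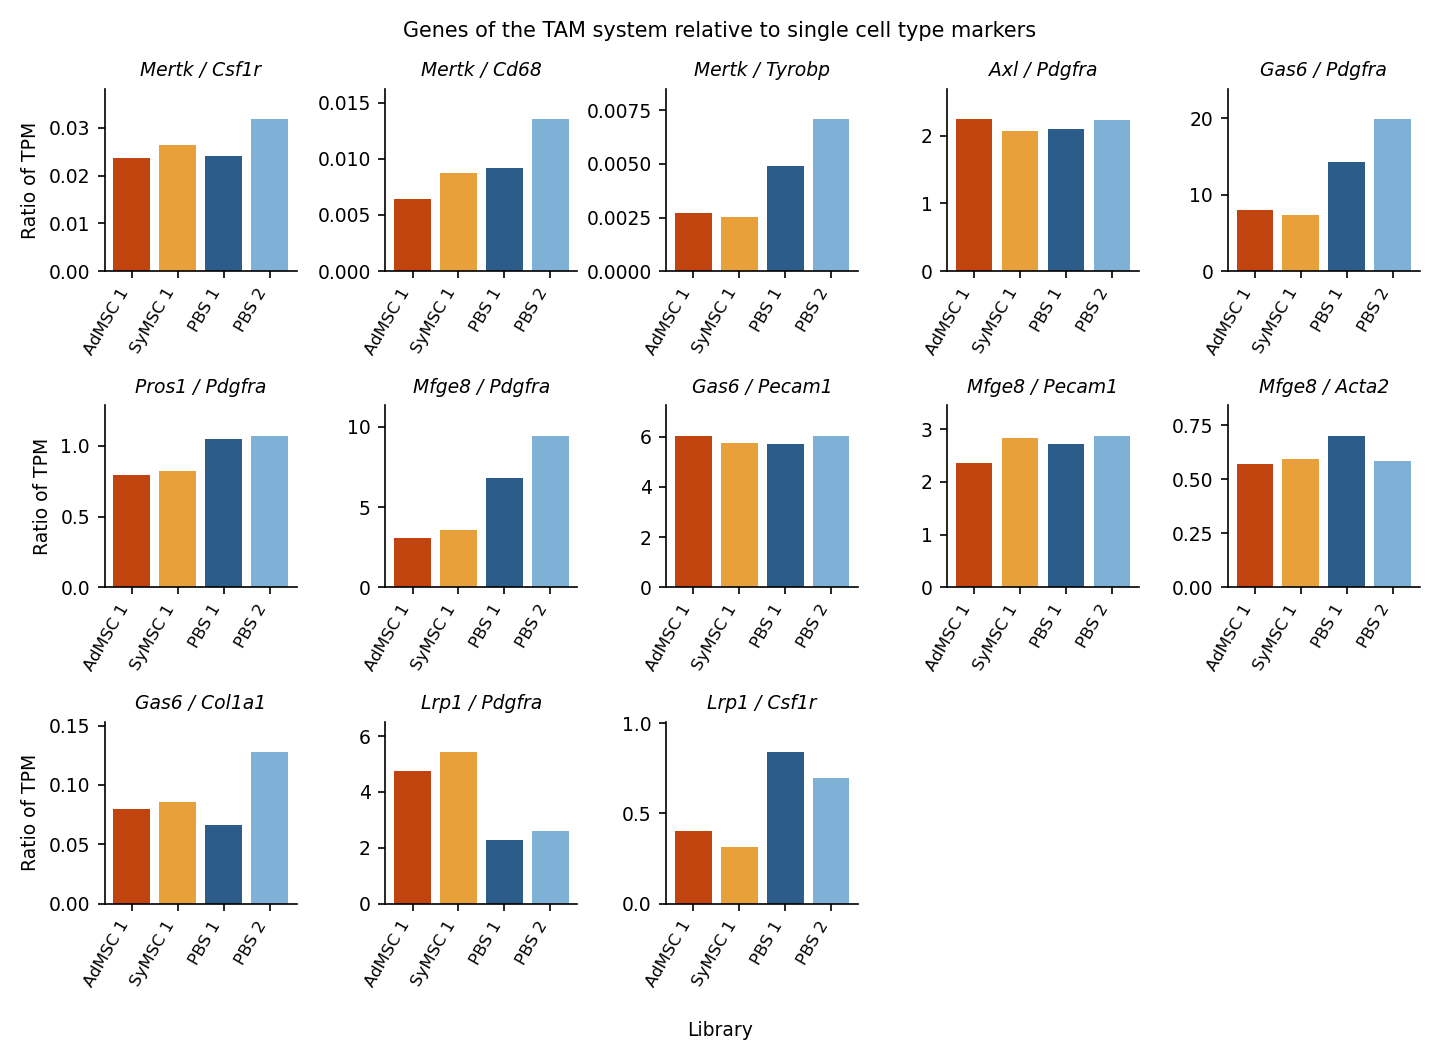
Ratio of TPM of a gene of the TAM system or its companions to a single cell type marker in each library, in 13 panels, each with its own axis from 0. The arms overlap for Mertk over Csf1r, Axl over Pdgfra, Gas6 over Pecam1 and Col1a1, and Mfge8 over Pecam1 and Acta2, and do not overlap in the other panels.

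The genes whose profile lay closest to each called gene were found over the 4 libraries among 9665 candidates with a mean of at least 5 TPM, by the same root mean square difference on the log2 scale. For Gas6 they were Cpq (0.024), Chp2 (0.027) and Pecam1 (0.040), and for Mfge8 they were Nexn (0.028), Cpe (0.041) and Tmem53 (0.042). For Pros1 they were Osbpl5 (0.010), Efnb2 (0.020) and Mxra7 (0.022). For Axl they were Rab34 (0.0078), Ifitm3 (0.0089) and Arl15 (0.010), and for Tyro3 Cc2d2a (0.012), Rhbdf1 (0.013) and Foxc1 (0.019). For Mertk they were Hlx (0.041), Pld4 (0.064) and Fbxo27 (0.073). This closeness over 4 libraries is a description.

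Gas6 and protein S must be carboxylated and cleaved before they work, so the enzymes of that step were looked at. Of 6 genes, 1 was called higher, 2 lower and 3 did not pass, with a median log2 change of -0.016. The counts of this list and of those below stand beside 48.4% called over all genes tested, 23.7% higher and 24.7% lower. Vkorc1, which recycles vitamin K, stood at 259 TPM in AdMSC 1 and 199.9 TPM in SyMSC 1, against 736 TPM in PBS 1 and 654 TPM in PBS 2 (log2 change -1.60, SE 0.16, limma adjusted p = 0.000955). Ggcx, the carboxylase itself, changed by -0.58 (limma adjusted p = 0.0243), and this call ended without SyMSC 1 (0.0842), PBS 1 (0.102) or PBS 2 (0.0571), which left 1 gene lower. Without PBS 2 the higher count was 2. Furin, a protease that cleaves propeptides, rose by 1.54 on the log2 scale (limma adjusted p = 0.000456).

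TAM receptors can be cut from the cell surface by the metalloproteases ADAM10 and ADAM17. Of 5 genes of shedding, 2 were called higher, 2 lower and 1 did not pass, with a median log2 change of 0.14. Adam10 rose by 0.68 (limma adjusted p = 0.00941), a call that ended without PBS 1 (0.0571) and left 1 gene higher, and Adam17 had a log2 change of 0.14 (limma adjusted p = 0.351). Rhbdf2, which brings ADAM17 to the surface in immune cells, rose by 1.36 and the related Rhbdf1 fell by 0.86. Timp3, an inhibitor of both proteases, fell to 65.2 TPM in AdMSC 1 and 35.05 TPM in SyMSC 1, against 209 TPM in PBS 1 and 222 TPM in PBS 2 (log2 change -2.15, limma adjusted p = 0.00443).

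Genes of TAM signalling and its known targets were called higher in 5 of 12 cases, lower in 4 and did not pass in 3, with a median log2 change of 0.28. Socs3 and Socs1, cytokine signalling inhibitors that TAM signalling induces in mouse dendritic cells, went apart, at 2.0 (limma adjusted p = 0.00371) and -1.06 (0.0117). The Socs1 call ended without SyMSC 1 (0.0651). Twist1, a repressor of cytokine genes reported downstream of Axl, changed by -1.20 (limma adjusted p = 0.0182), a call that ended without PBS 1 (0.0892), where 2 of the list were called lower. Vav1, an exchange factor of blood cells that is a known Mertk partner, rose by 2.68 (limma adjusted p = 0.000303), the interferon receptor gene Ifnar1 by 1.17 and the adaptor gene Grb2 by 1.10.

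The integrin partners of Mfge8 divided. Of 6 integrin genes, 1 was called higher, 2 lower and 3 did not pass, with a median log2 change of -0.16. Itgb5, a partner of the alpha v chain, stood at 59.4 TPM in AdMSC 1 and 56.8 TPM in SyMSC 1, against 134 TPM in PBS 1 and 141 TPM in PBS 2 (log2 change -1.23, limma adjusted p = 0.000801). Itgb3, the other main partner, stood at 5.98 TPM in AdMSC 1 and 10.9 TPM in SyMSC 1, against 2.68 TPM in PBS 1 and 1.83 TPM in PBS 2 (log2 change 1.5, limma adjusted p = 0.00825). Itgav, the alpha v chain, had a log2 change of 0.34 (limma adjusted p = 0.124), and the call of Itgb8 (-0.86) ended without SyMSC 1 (limma adjusted p = 0.0631), which left 1 gene lower.

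Other receptors for dying cells and scavenger cargo were called in all 13 tested cases, 7 higher and 6 lower, with a median log2 change of 0.79. Over all genes tested 48.4% were called, 23.7% higher and 24.7% lower. Those that rose were led by Trem1 (2.88), an amplifier of inflammation and not a receptor of phosphatidylserine, Olr1 (2.82), Cd300a (2.74), a phosphatidylserine receptor of leukocytes, and Msr1 (2.51), followed by Havcr2 (1.79) and Cd300lf (1.68), which also bind phosphatidylserine. Trem2, a lipid receptor of macrophages, rose by 0.79 (limma adjusted p = 0.00825). Timd4, which binds phosphatidylserine on resident macrophages, fell to 3.52 TPM in AdMSC 1 and 4.06 TPM in SyMSC 1, against 8.11 TPM in PBS 1 and 11.4 TPM in PBS 2 (log2 change -1.15, limma adjusted p = 0.00565). Scarb1 (-1.49) and Ager (-1.45) also fell, and Cd36 changed by -1.33, a call that ended without AdMSC 1 (limma adjusted p = 0.12) or SyMSC 1 (0.0718). Adgrb1 was under the filter, between 0.28 and 1.10 TPM.

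Among 11 other bridging molecules, 3 were called higher, 3 lower and 5 not at all, with a median log2 change of 0.51. Lgals3, a galectin reported as a Mertk ligand, stood at 3121 TPM in AdMSC 1 and 2704 TPM in SyMSC 1, against 1093 TPM in PBS 1 and 1196 TPM in PBS 2 (log2 change 1.34, limma adjusted p = 0.000913). The complement gene C1qc fell by 0.91 (limma adjusted p = 0.00654) and Anxa1, a phosphatidylserine-binding annexin, by 0.81 (limma adjusted p = 0.00713). C1qb, the partner of C1qc, had a log2 change of -0.65 (limma adjusted p = 0.0299). It lost its call without AdMSC 1, SyMSC 1 or PBS 2, and with no filter on low values (limma adjusted p = 0.0658). Without PBS 2 its log2 change was -0.39. Calr, the calreticulin that Lrp1 recognises, changed by 0.56 (limma adjusted p = 0.034) and lost its call without AdMSC 1 (0.144) or PBS 2 (0.152), with no filter on low values (0.0674) or with eBayes without trend and robust options (0.055). Thbs1 changed by 0.91 (limma adjusted p = 0.047) and lost its call without SyMSC 1 (0.0543), PBS 1 (0.131) or PBS 2 (0.184), and under both other scalings (0.0703 and 0.0829). Without PBS 2, 1 of the list was called higher, and without SyMSC 1 the list's median was -0.071.

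Partners and ligands of Lrp1 were called higher in 1 of 10 cases, lower in 4 and did not pass in 5, with a median log2 change of -0.23. Apoe, an Lrp1 ligand, stood at 19209 TPM in AdMSC 1 and 23281 TPM in SyMSC 1, against 9038 TPM in PBS 1 and 11843 TPM in PBS 2 (log2 change 1.03, limma adjusted p = 0.00505). Lrpap1, the chaperone that Lrp1 needs, changed by -0.37 (limma adjusted p = 0.0406), and that call ended with each of the 4 libraries left out in turn, at adjusted p between 0.0775 and 0.203. Pdgfrb, a growth factor receptor that works with Lrp1 in vessel walls, fell by 1.92 (limma adjusted p = 0.000724). Tfpi, an inhibitor of clotting taken up by Lrp1, changed by -0.53 (limma adjusted p = 0.0206), a call that ended without SyMSC 1 (0.0765) or PBS 1 (0.121). The lower count was 1 without SyMSC 1 and 2 without PBS 1, and the higher count was 2 without AdMSC 1. Among 9 genes listed beside the stabilins, 4 were called higher, 3 lower and 2 did not pass, with a median log2 change of 0.30. The largest change was that of Spp1, which encodes the secreted phosphoprotein osteopontin (log2 change 5.32, limma adjusted p = 0.000187). Spp1 stood at 10022 TPM in AdMSC 1 and 6402 TPM in SyMSC 1, against 207 TPM in PBS 1 and 193 TPM in PBS 2. Any link of Spp1 to the stabilins was not tested. Sparc, a matrix protein cleared by Stab1, fell by 1.98 (limma adjusted p = 0.000656). The hyaluronan synthase genes Has2 and Has3, whose product Stab2 takes up, had log2 changes of 1.88 (limma adjusted p = 0.000705) and -0.84 (0.0102). The Has3 call ended without SyMSC 1 (0.0702), and that of Gdf15 (2.27, limma adjusted p = 0.0225) ended without AdMSC 1 (0.0896) or SyMSC 1 (0.125). The higher count was 2 without AdMSC 1 and the lower count 1 without SyMSC 1.

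The machinery inside the phagocyte was called higher in 5 of 14 cases, lower in 3 and did not pass in 6, with a median log2 change of 0.27. Dock2 (2.19) and Rac2 (2.06), the exchange factor and GTPase of blood cells, rose most, while the more widely expressed Dock1 had a log2 change of -0.10 (limma adjusted p = 0.554) and Rac1 rose by 0.51 (0.0166). Gulp1, an adaptor of Lrp1 and the stabilins, changed by -1.65 (limma adjusted p = 0.0172), a call that ended without SyMSC 1 (0.0511). Trio (-0.88) fell, Rhog (0.82) rose, and Wasl changed by -0.63, a call that ended without SyMSC 1 (limma adjusted p = 0.0788) or PBS 1 (0.101). The higher count was 3 without AdMSC 1, PBS 1 or PBS 2, and the lower count 1 without SyMSC 1. Genes of lipid handling after uptake were called higher in 10 of 16 cases, lower in 3 and did not pass in 3, with a median log2 change of 0.84. The lower count was 1 without SyMSC 1 or PBS 2. The glucose transporter gene Slc2a1 rose most (3.44, limma adjusted p = 0.000161), and Cybb (1.76), Rxra (1.48), Slc16a1 (1.37) and Ucp2 (1.19) rose as well. The cholesterol exporter genes Abca1 (0.85) and Abcg1 (0.89) rose, and the nuclear receptor gene Pparg fell by 2.17 (limma adjusted p = 0.000883). Nr1h3, which encodes the LXR-alpha receptor known to induce Mertk in mouse, had a log2 change of -0.35 (limma adjusted p = 0.27).

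**Figure D5:**
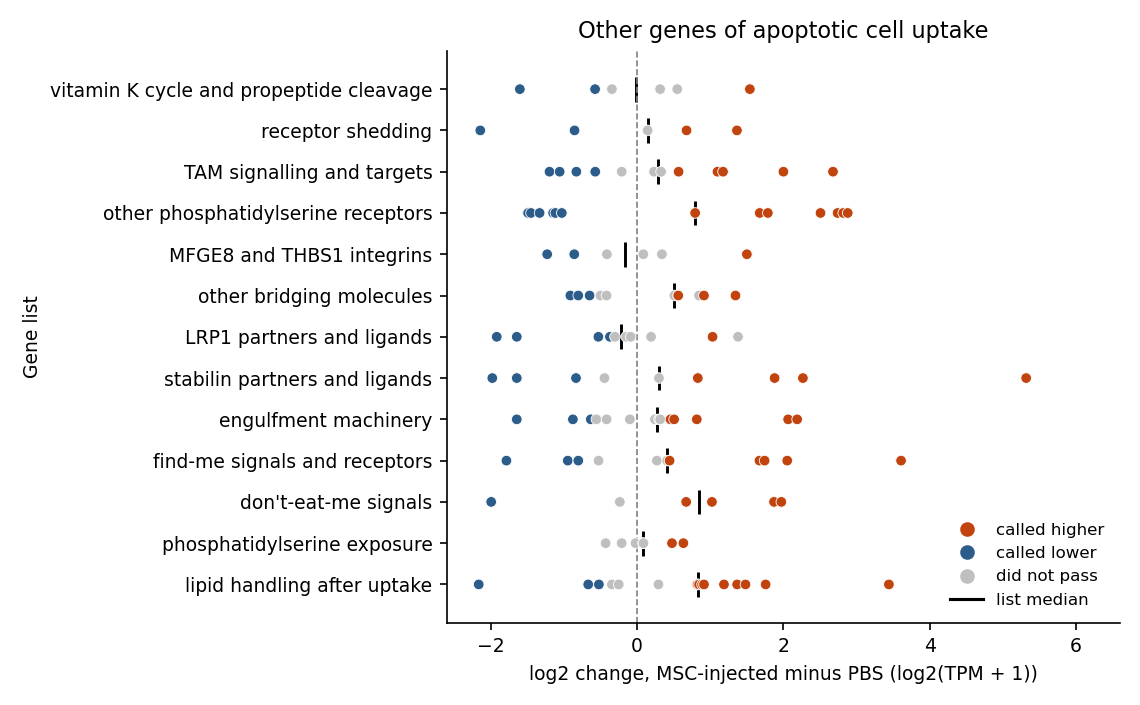
Log2 change on the log2(TPM + 1) scale, MSC arm minus PBS arm, of each tested gene in 13 lists around the 9 genes, with the list median as a vertical line. Red points were called higher, blue points lower and grey points did not pass the limma test. Every list but phosphatidylserine exposure holds called genes on both sides of 0.

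Over the 123 tested genes of these lists, 50 were called higher and 33 lower, which is 67.5% of them, beside 48.4% of all genes tested. Without SyMSC 1 both counts were smaller, as was the count of calls over all genes tested. The lists were drawn up with earlier results of these data known, so this share is a description.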

How the data were processed

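Polyadenylated RNA was selected with oligo-dT beads, its second cDNA strand was made with dUTP, and the libraries were sequenced on a BGISEQ-500, per the labels' protocols. The authors deposited TPM with 2 decimals, per the file headers, and each library sums to 1000000 over the 17899 rat genes. HISAT2 2.0.4 and the build Rnor_6.0 are named, with no role, per the submitters' processing notes. For the counting tool, the use of strand, and whether human reads were kept apart: not given in the sources used here. Because TPM sums to a fixed total, more RNA from some genes means lower values for others. Symbols and gene IDs are the table's; 16718 of the 17899 IDs, and all 9 of the genes described, are in the RefSeq table of GRCr8.

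The 13371 genes that reached 1 TPM in 2 or more libraries were fitted as log2(TPM + 1) in limma 3.58.1 (R 4.3.3; trended, robust eBayes, 2 residual degrees of freedom), with Benjamini-Hochberg adjustment over all of them and a call at 0.05. The design had no block; a 3-group fit had 1 residual degree of freedom. The test was tried on simulated data, where the share of false calls lay above the nominal rate. Smaller changes were missed there more often than large ones, so calls near the threshold are the least secure. Far fewer genes were changed in the simulation than were called in the data, so its share of false calls does not carry over. Alternatives were other scalings, pseudocount, filters, eBayes options, the title arm as a block and each library left out. The 9 genes and all lists (222 entries, 217 matched) were chosen with earlier results of these data known. All 9 genes are named; of each of the 13 lists around them up to 6 called genes with the largest change and a set of direct partners whatever their values. Cell type markers are given by counts and sums. The called resident macrophage markers are also named, and single markers of several cell types are used in the ratios. For each called gene the 3 nearest profiles are named. Prg4, Scarb1, Ager, Dock1, Rac1, Abca1, Abcg1, Nr1h3 and Xkr8 are outside this rule and were named after their values had been seen. No sample column was left unused.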

Additional observations from a re-analysis of the deposited data

How the results depend on the processing

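The count of 6 called genes (1 higher, 5 lower) was 6 also under the other scalings, pseudocount, filters and eBayes options. With 1 library left out, between 4 and 6 genes were called, 0 to 1 higher and 4 to 6 lower; the higher count was 0 without SyMSC 1 or PBS 1. In the same fits 34.3% to 40.2% of all genes were called, and 33.9% with no filter on low values, against 48.4% as reported. No log2 change of the 8 genes against PBS turned sign under the alternatives run. With the title arm as a replicate block, the counts were 7 called, 1 higher and 6 lower, since Stab1 passed (limma adjusted p = 0.0403), and 6590 genes were called in all; same-titled libraries deviated together only weakly (r = 0.12 across 13371 genes, which are not independent), and nothing in the labels says that they share an animal. For SyMSC 1 against AdMSC 1 the count was 0 under every alternative run; leaving out a PBS library leaves no residual degree of freedom there and was not run. The log2 difference of the ligand to receptor ratio between arms was -1.24, between -1.14 and -1.29 under 3 other definitions, and -3.18 for Gas6 over Mertk alone, where the denominator rose. Over the other list genes, whose alternatives were chosen after seeing the data, leaving 1 library out gave 42 to 45 genes higher and 21 to 32 lower. Upper quartile scaling moved the median of all genes by -0.08. Depth is unknown, so the precision of Mertk and Tyro3, the lowest genes tested, cannot be stated.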

Other observations

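Signals that dying cells send were also measured. Of 11 tested genes of find-me signals and their receptors, 5 were called higher, 3 lower and 3 did not pass. The largest change was that of Cx3cr1, the receptor gene of fractalkine, at 92.7 TPM in AdMSC 1 and 68.9 TPM in SyMSC 1, against 4.4 TPM in PBS 1 and 7.15 TPM in PBS 2 (log2 change 3.61, limma adjusted p = 0.000404). Gpr132, a lipid receptor gene, rose by 2.05 (limma adjusted p = 0.00185) and S1pr1, a receptor for sphingosine-1-phosphate, fell by 0.95 (0.00345). The nucleotide receptor genes P2ry6 and P2ry2 rose by 1.74 and 1.67 on the log2 scale (limma adjusted p = 0.000585 and 0.000499). Cx3cl1, which encodes fractalkine, the ligand of Cx3cr1, stood at 1.68 TPM in AdMSC 1 and 2.07 TPM in SyMSC 1, against 8.16 TPM in PBS 1 and 9.71 TPM in PBS 2 (log2 change -1.79, limma adjusted p = 0.00101). Genes that hold phagocytes back were called higher in 4 of 6 cases, lower in 1 and did not pass in 1. Cd47 rose by 0.67 (limma adjusted p = 0.00635), its receptor gene Sirpa by 1.02 (0.00156), Siglec10 by 1.97 (0.000591) and Plaur by 1.87 (0.000633), while Pecam1 fell by 2.0 (0.000661). Of 7 genes of phosphatidylserine exposure, 2 were called higher and 5 did not pass, with 1 higher without AdMSC 1, SyMSC 1 or PBS 1 and 0 without PBS 2. Xkr8, a scramblase, had a log2 change of -0.21 (limma adjusted p = 0.386). The call of the flippase gene Atp11a (0.63) ended without SyMSC 1 (limma adjusted p = 0.0791) or PBS 2 (0.106), and that of its subunit gene Tmem30a (0.48) without AdMSC 1 (0.0615), PBS 1 (0.0702) or PBS 2 (0.137).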
